A study of Mus musculus with 8 samples.

Results

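Fatty acid oxidation and lipid droplet genes were followed in macrophages grown from mouse bone marrow. The set held 38 named genes of 23354 gene symbols in the deposited tables. They were matched by symbol, each to 1 row, and cover 8 roles: the carnitine shuttle, acyl-CoA dehydrogenases, electron transfer, later mitochondrial steps, peroxisomal steps, acyl-CoA synthetases, regulators, and a last group of fatty acid binding proteins, a droplet coat protein and lipases. Of these, 37 reached at least 1 FPKM in at least 2 libraries and were tested among 10934 such genes; Ppara did not and was only described.

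There were 4 groups of 2 libraries each: Ern1f/fLyz2-Cre cells with IL-4, Ern1f/fLyz2-Cre control cells, Ern1f/f cells with IL-4 and Ern1f/f control cells. The labels give strain C57BL/6J and an age of 8 weeks for all samples, and every group carries the floxed Ern1 gene, which encodes the endoplasmic reticulum stress sensor IRE1α. Ern1f/fLyz2-Cre adds Cre recombinase driven from the lysozyme locus Lyz2, which is active in myeloid cells. Cells had 7 days in medium made with L929 cells, and IL-4 was given at 20 ng/ml for 24 hours. The labels do not say whether replicates 1 and 2 come from separate mice, cultures or runs, so p-values measure only the spread between these libraries, which may be technical. The labels conflict as well: in 4 libraries the title and the genotype field name different genotypes, since the field gives Ern1f/f for every replicate 1 and Ern1f/fLyz2-Cre for every replicate 2. Groups follow the titles here, and by that field the genotypes would be the replicate numbers.

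Fatty acids enter oxidation as acyl-CoA esters, cross into mitochondria on carnitine, and are shortened in repeated rounds of dehydrogenation, hydration, a further dehydrogenation and thiolysis. Electrons of the first dehydrogenation pass through electron transfer flavoprotein to its dehydrogenase in the inner membrane and on to ubiquinone. Macrophages also store fatty acids in lipid droplets, and IL-4, which induces alternative activation, is known for raising oxidative metabolism in these cells.

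Promoter sequence is shown for genes called with IL-4 in the average over genotypes; Etfdh and Ppargc1b, also called, are named only. RefSeq windows on GRCm38.p6, running from 250 bases before to 50 after a start site, matched 31 of the 38 genes. Hadha and Hadhb, which encode the alpha and beta subunits of the mitochondrial trifunctional protein, lie head to head on chromosome 5, with 272 bases between their RefSeq start sites at 30154980 (minus strand) and 30155253 (plus strand). The printed stretches hold no exon of GENCODE M21, and capitals mark the letters CCAAT on either strand, a motif picked after the sequences had been read. The first is only an 85-base part of the gap between Hadha and Hadhb, at chr5:30155163-30155247 (plus strand). The next precede Etfa at chr9:55512244-55512493 (minus strand) and Etfb at chr7:43443822-43444071 (plus strand), which encode the alpha and beta subunits of electron transfer flavoprotein. The last precedes Ppard at chr17:28232504-28232699 (plus strand).
Hadha-Hadhb: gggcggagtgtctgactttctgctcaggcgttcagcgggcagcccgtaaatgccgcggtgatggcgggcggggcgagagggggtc
Etfa: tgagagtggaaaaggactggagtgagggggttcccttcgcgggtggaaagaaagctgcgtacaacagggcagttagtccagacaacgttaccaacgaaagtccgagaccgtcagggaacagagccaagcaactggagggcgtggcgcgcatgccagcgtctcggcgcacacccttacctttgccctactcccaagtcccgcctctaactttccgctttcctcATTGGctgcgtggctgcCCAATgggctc
Etfb: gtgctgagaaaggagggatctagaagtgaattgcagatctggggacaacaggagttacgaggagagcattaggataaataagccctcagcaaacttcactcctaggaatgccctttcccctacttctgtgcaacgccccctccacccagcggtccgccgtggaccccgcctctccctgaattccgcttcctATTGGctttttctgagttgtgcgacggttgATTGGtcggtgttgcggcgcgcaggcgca
Ppard: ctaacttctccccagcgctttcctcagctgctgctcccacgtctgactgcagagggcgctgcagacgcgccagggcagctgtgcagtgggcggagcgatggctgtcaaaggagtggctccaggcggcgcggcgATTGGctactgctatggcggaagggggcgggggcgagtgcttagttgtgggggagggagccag
CCAAT occurred in 15 of the 33 member windows and in 37.4% of all 32851 windows. A direct repeat of AGGTCA with 1 base between the copies, the type of element that PPAR receptors bind, occurred in 0 member windows and in 0.0396% of all windows. The STAT6 type motif, TTC and GAA with 4 bases between, occurred in 0 member windows and in 6.95% of all. The E-box CACGTG occurred in the windows of Lipe and Plin2 and in 7.15% of all. Both strands were searched, and of these motifs only CCAAT occurs in the printed stretches. A match here is a match of letters, and no match says nothing of the factor.

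The interval widths in the tables imply 21526100 to 37917700 fragments per library. Arg1, a standard IL-4 target, was 5.94 higher on the log2(FPKM + 1) scale with IL-4 in Ern1f/fLyz2-Cre cells and 5.71 higher in Ern1f/f cells. Ern1, measured over the whole gene, was at 7.43 and 10.98 FPKM in Ern1f/fLyz2-Cre cells with IL-4 (replicates 1 and 2), 14.3 and 12.7 in Ern1f/fLyz2-Cre controls, 10.2 and 9.11 in Ern1f/f cells with IL-4 and 11.5 and 9.55 in Ern1f/f controls, so its level did not separate the titles, and a value over the whole gene does not check the deleted part. Lyz2 was lower in Ern1f/fLyz2-Cre than in Ern1f/f libraries within each replicate number and treatment, but by unequal amounts. On the log2 scale it differed by -0.62 with IL-4 and -0.73 in control in replicate 1, against -2.93 and -3.00 in replicate 2. Ern1f/fLyz2-Cre controls were at 10949 and 2171 FPKM in replicates 1 and 2, so libraries of that title differed between the numbers in this gene. All 7 macrophage markers in the tables were detected in every library, from Cd68 at 669 to 1001 FPKM to Mertk at 18.4 to 37.9 and Fcgr1 at 16.9 to 113 FPKM, and Fcgr1 was lower with IL-4 in all 4 pairs, while summed erythroid and lymphoid markers stayed at or under 1.011 FPKM. Of 7 adipocyte markers only Lpl, which macrophages also express, was above 1 FPKM, and Lep was at 0 in all libraries. Summed fibroblast markers stood at 81.8 to 468 FPKM in the 4 libraries numbered 1 and at 2.14 to 7.32 FPKM in the 4 numbered 2. Libraries of the same number deviated together: over genes, the difference replicate 2 minus replicate 1 in any group correlated with that in any other, with r from 0.69 to 0.83 in the 6 pairs, so fits with the replicate number as a block are given beside those without it.

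Levels spanned from nearly nothing to 2386 FPKM, a unit already scaled by transcript length. The 4 highest were genes of binding, storage and lysosomal lipolysis. Fabp5, an intracellular fatty acid binding protein, averaged 1562 FPKM over the 8 libraries, with libraries between 973 and 2386 FPKM. Lipa, the lysosomal acid lipase, averaged 525 FPKM, Plin2, the main droplet coat protein of macrophages, 348 FPKM, and Fabp4, a second fatty acid binding protein, 295 FPKM. The lowest Fabp5 library lay above the highest of Lipa, and Lipa was above Plin2 in 8 of 8 libraries although their ranges overlapped; Plin2 was above Fabp4 in 7 of 8. Among oxidation genes Etfb had the highest mean over all 8 libraries, 68.1 FPKM, followed by the peroxisomal multifunctional enzyme Hsd17b4 at 60.6, the mitochondrial and membrane-bound synthetase Acsl5 at 50.6, and the peroxisomal thiolase Acaa1a at 49.5 FPKM. With IL-4 Etfb was above Hsd17b4 in each library, averaging 79.9 ± 9.66 against 63.5 ± 12.1 FPKM (SD, n = 4 each). In controls Etfb averaged 56.3 ± 3.83 and Hsd17b4 57.7 ± 13.1 FPKM (SD, n = 4 each), and their order split by replicate number. In the controls numbered 1 Hsd17b4 was higher, at 68.1 against 52.7 FPKM in Ern1f/f and 70.0 against 55.7 in Ern1f/fLyz2-Cre. In those numbered 2 Etfb was higher, at 61.7 against 45.6 FPKM in Ern1f/f and 55.1 against 47.2 in Ern1f/fLyz2-Cre. Acadl, the long-chain acyl-CoA dehydrogenase, led its class at 38.6 FPKM, Cpt1a, the outer-membrane carnitine palmitoyltransferase that commits fatty acids to mitochondria, led the shuttle at 28.2 FPKM, and Ppard led the regulators at 9.76 FPKM. The nuclear receptor Ppara, the liver's main activator of these enzymes, was at 0 in 4 libraries and at or under 0.0183 FPKM in the others, and the peroxisomal bifunctional enzyme Ehhadh averaged 0.913 FPKM. The authors' 95% interval was within 10% of the value in every library for 33 of the 37 tested genes, and wider in at least 1 library for Acsl3, Eci1, Ehhadh and Ppargc1b.

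**Figure D1:**
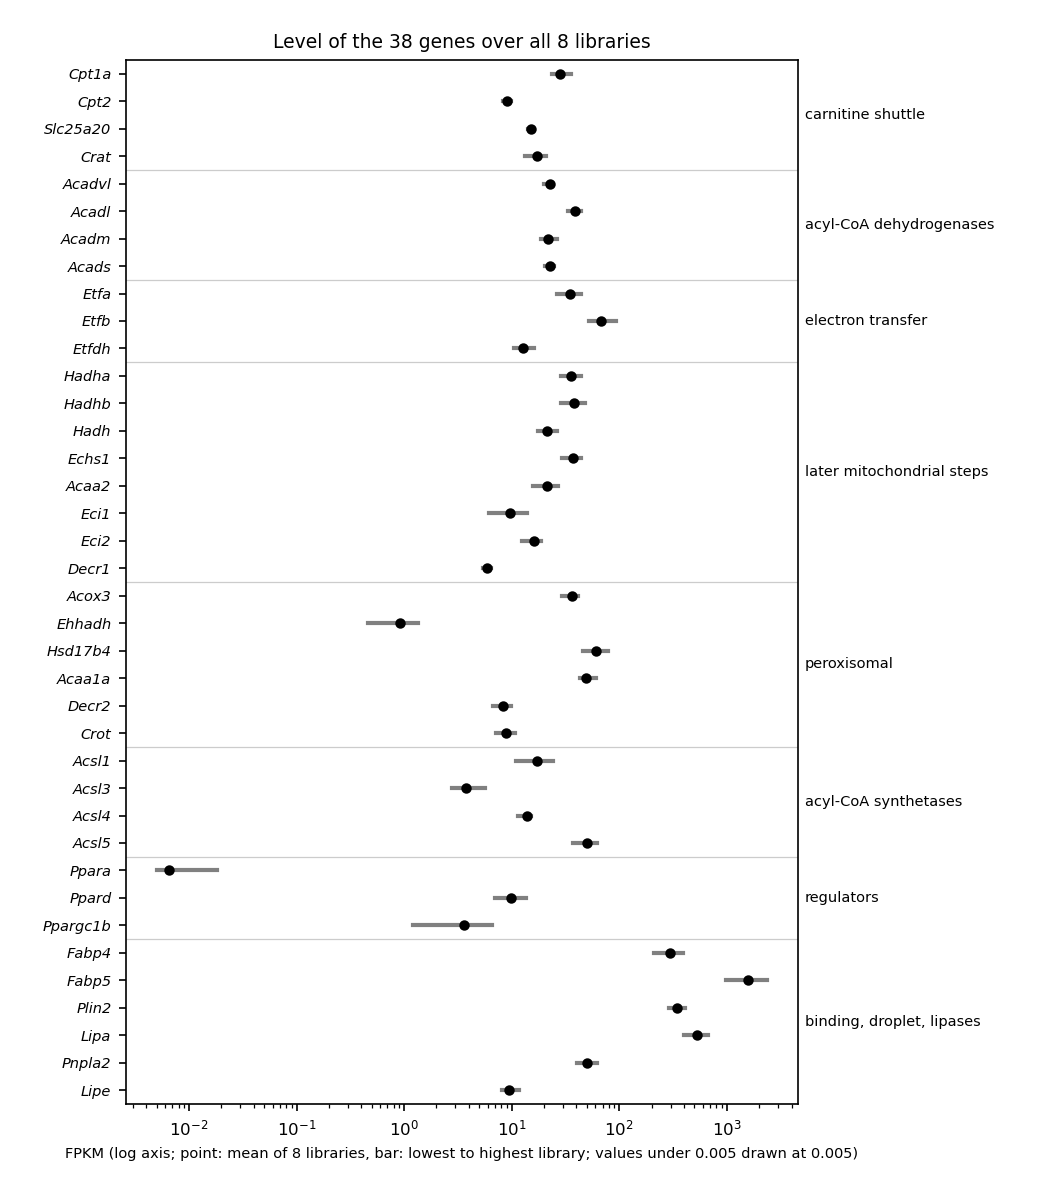
Level of each of the 38 genes in FPKM on a log axis, grouped by role: the point is the mean of 8 libraries and the bar runs from the lowest to the highest library. Fabp5, Lipa, Plin2 and Fabp4 lie above all others, and Ppara lies at or under 0.0183 FPKM.

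With IL-4, RNA of the electron transfer genes and of Hadha and Hadhb was higher by a modest amount in the blocked average. RNA of the coactivator Ppargc1b rose by the largest amount, and that of the receptor Ppard fell. These calls need the replicate block: averaged over genotypes, an average added after the values had been seen, limma called 7 of the 37 genes with the block at a Benjamini-Hochberg adjusted p under 0.05, against 12.7% of all 10934 genes. Of these 6 were higher (5.88% of all genes) and 1 was lower (6.86% of all genes). Without the block 0 of the 37 were called, against 0.841% of all genes, and 7 had an unadjusted p under 0.05, as did 13.9% of all genes. With the block 10 of the 37 had an unadjusted p under 0.05, as did 30% of all genes. The direction was the same in all 4 pairs of libraries, paired by genotype and number, for 11 genes that were higher (17% of all genes) and 4 that were lower (23.5% of all genes). The median difference over the 37 genes was 0.01, against -0.03 over all genes tested.

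Fewer of these genes were called whenever a single library was left out, a step that also leaves fewer libraries to estimate the spread. The differences kept their direction. In those fits they ran from 0.39 to 0.44 for Etfa, 0.40 to 0.59 for Etfb and 0.37 to 0.43 for Etfdh. For Hadha they ran from 0.30 to 0.43, for Hadhb from 0.45 to 0.55 and for Ppargc1b from 0.91 to 1.32. Ppard ran from -0.69 to -0.50. Why calls were lost was not tested. With the block kept and each of the 8 libraries left out in turn, 1 to 4 of the 7 genes were called, whichever library was left out: Hadhb in 8 of 8 fits, Ppard and Ppargc1b in 5 each, Etfa in 3, Etfb in 2, and Etfdh and Hadha in 0. Without the filter on low values, which adds many genes near 0 to the test, Etfa alone was still called with the block.

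Within a genotype fewer genes were called. In Ern1f/fLyz2-Cre cells the block gave calls for Hadhb, at 0.60 (adjusted p = 0.0415, limma), and Ppard, at -0.68 (adjusted p = 0.0494, limma), 2 of 37 against 3.32% of all genes (1.79% higher, 1.53% lower); 9 had an unadjusted p under 0.05 with the block and 7 without it, against 21.5% and 8.53% of all genes. Neither call was kept in any of the 8 fits that left out a library, where the adjusted p (limma with the block) ran from 0.0634 to 0.171 for Hadhb and from 0.0565 to 0.281 for Ppard. In Ern1f/f cells 0 of 37 were called with the block, against 2.12% of all genes (1.26% higher, 0.86% lower), and 6 had an unadjusted p under 0.05 in either fit (6.16% of all genes without the block, 16.3% with it). Without the block 0 of 37 were called in Ern1f/fLyz2-Cre cells, against 0.0549% of all genes, and in Ern1f/f cells, against 0% of all genes. Both genotypes enter the average. No difference between their responses was called, as described further on, but that does not show that they responded alike.

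**Figure D2:**
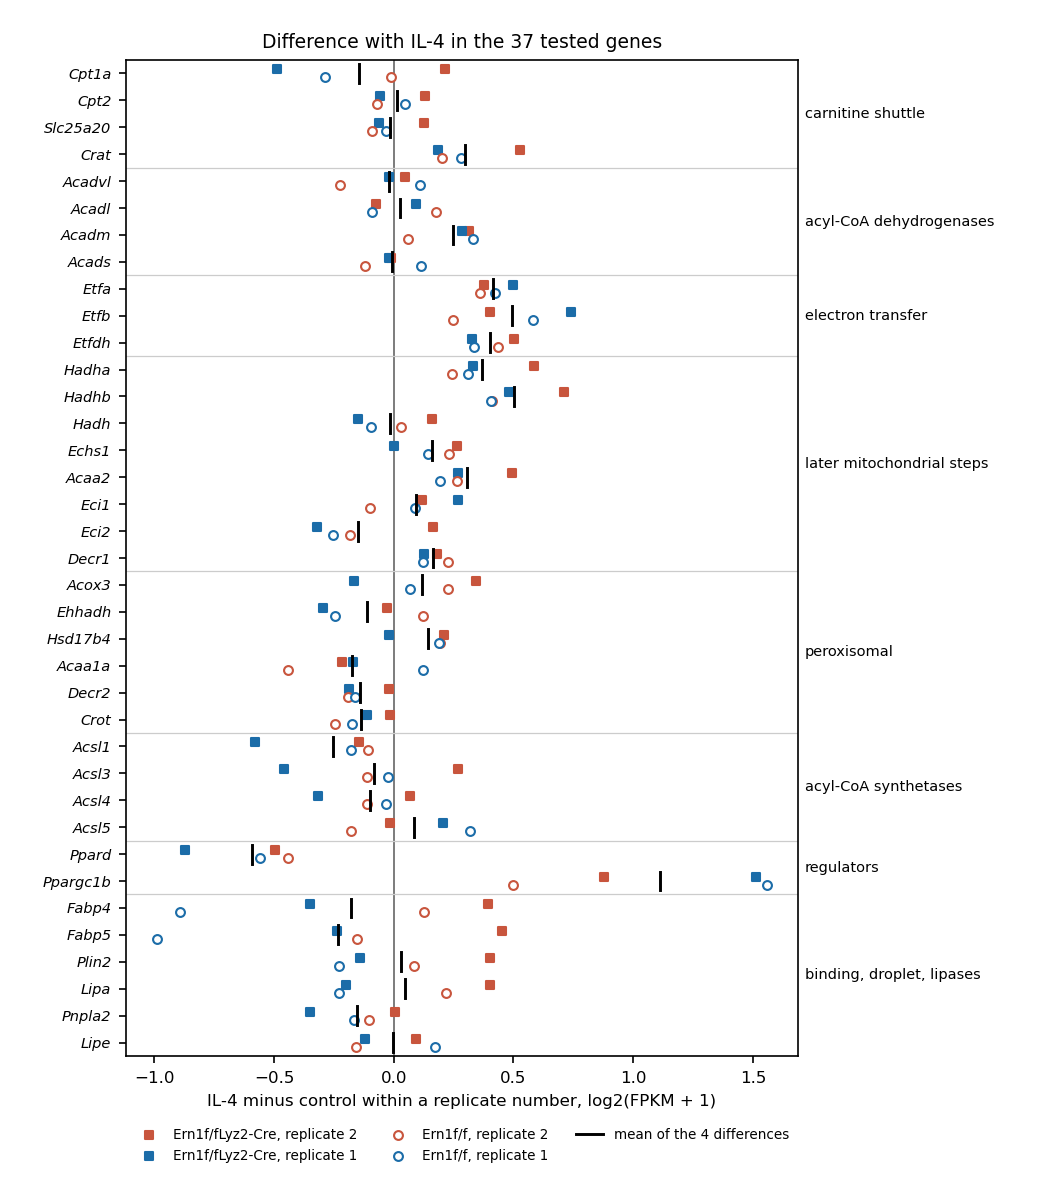
IL-4 minus control in log2(FPKM + 1) within each replicate number for the 37 tested genes, with filled squares for Ern1f/fLyz2-Cre, open circles for Ern1f/f, colour for the replicate number and a bar for the mean of the 4 differences. The electron transfer genes, Hadha and Hadhb lie right of 0 in all 4 pairs, Ppard lies left of 0 in all 4, and Fabp4, Plin2 and Lipa lie left in replicate 1 and right in replicate 2.

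All 3 electron transfer genes rose with IL-4 in the blocked average, by nearly the same amount. Etfa was at 40.9 and 44.1 FPKM in Ern1f/fLyz2-Cre cells with IL-4 (replicate 1, then replicate 2, here and below), against 28.7 and 33.8 in their controls, and at 36.0 and 40.4 FPKM in Ern1f/f cells with IL-4, against 26.6 and 31.3 in theirs. Its 4 IL-4 libraries, at 40.4 ± 3.35 FPKM, lay above all 4 controls, at 30.1 ± 3.11 FPKM (SD, n = 4 each). The average difference was 0.41 (SE 0.07, adjusted p = 0.0158, limma with the block), a 1.33-fold higher level on the log2(FPKM + 1) scale, as folds are throughout. Etfb was at 93.7 and 73.1 FPKM in Ern1f/fLyz2-Cre cells with IL-4, against 55.7 and 55.1 in controls, and at 79.3 and 73.3 FPKM in Ern1f/f cells with IL-4, against 52.7 and 61.7 in controls. Again the groups did not overlap, and the average difference was 0.49 (SE 0.11, adjusted p = 0.0324, limma with the block), larger in replicate 1 (0.66) than in replicate 2 (0.32). Etfdh, the ubiquinone oxidoreductase that takes electrons from this flavoprotein, was at 14.7 and 16.3 FPKM in Ern1f/fLyz2-Cre cells with IL-4, against 11.5 and 11.2 in controls, and at 13.7 and 14.5 FPKM in Ern1f/f cells with IL-4, against 10.6 and 10.4 in controls. Its difference was 0.40 (SE 0.07, adjusted p = 0.0176, limma with the block), with 0.33 in replicate 1 and 0.47 in replicate 2. Without the block the adjusted p was 0.179 for Etfa, 0.155 for Etfb and 0.103 for Etfdh.

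The locus of Etfa is given as chr9:55454436-55512243, of Etfb as chr7:43444143-43457782 and of Etfdh as chr3:79603788-79628767 (mm10); Etfb overlaps the coding gene Gm45233, as 8 of the 38 members overlap another coding gene, where reads may be assigned uncertainly.

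Of 8 genes of the later mitochondrial steps, Hadha and Hadhb rose in the blocked average. Hadhb was at 48.5 and 48.1 FPKM in Ern1f/fLyz2-Cre cells with IL-4, against 34.5 and 29.0 in controls, and at 43.8 and 38.5 FPKM in Ern1f/f cells with IL-4, against 32.8 and 28.7 in controls. The groups did not overlap, and the average difference was 0.50 (SE 0.08, adjusted p = 0.0113, limma with the block; 0.115 without), a 1.42-fold higher level. Hadha was at 43.3 and 43.7 FPKM in Ern1f/fLyz2-Cre cells with IL-4, against 34.2 and 28.8 in controls, and at 41.8 and 34.0 FPKM in Ern1f/f cells with IL-4, against 33.5 and 28.5 in controls. Its lowest IL-4 library, at 34.0, lay just under the highest control, at 34.2, and the average difference was 0.37 (SE 0.08, adjusted p = 0.0358, limma with the block; 0.248 without). The levels of the 2 subunits, part of whose promoter gap is printed above, lay close to each other in every library.

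Acaa2, a mitochondrial thiolase, was higher in all 4 pairs but was not called. It was at 27.0 and 22.5 FPKM in Ern1f/fLyz2-Cre cells with IL-4, against 22.2 and 15.7 in controls. In Ern1f/f cells it was at 24.7 and 20.9 FPKM with IL-4, against 21.5 and 17.2 in controls. The average difference was 0.31 (adjusted p = 0.05003, limma with the block), just over the threshold. Echs1, the short-chain enoyl-CoA hydratase, and Decr1, a reductase for unsaturated fatty acids, were also higher in all 4 pairs, with average differences of 0.16 each and adjusted p of 0.228 and 0.168 (limma with the block). Eci2, an isomerase for unsaturated fatty acids, was at 13.3 and 18.8 FPKM in Ern1f/fLyz2-Cre cells with IL-4, against 16.8 and 16.7 in controls, and at 12.4 and 16.3 FPKM in Ern1f/f cells with IL-4, against 15.0 and 18.7 in controls, an average difference of -0.15. The short-chain dehydrogenase Hadh and the isomerase Eci1 had average differences of -0.01 and 0.09. Only Hadha and Hadhb of this role were called.

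**Figure D3:**
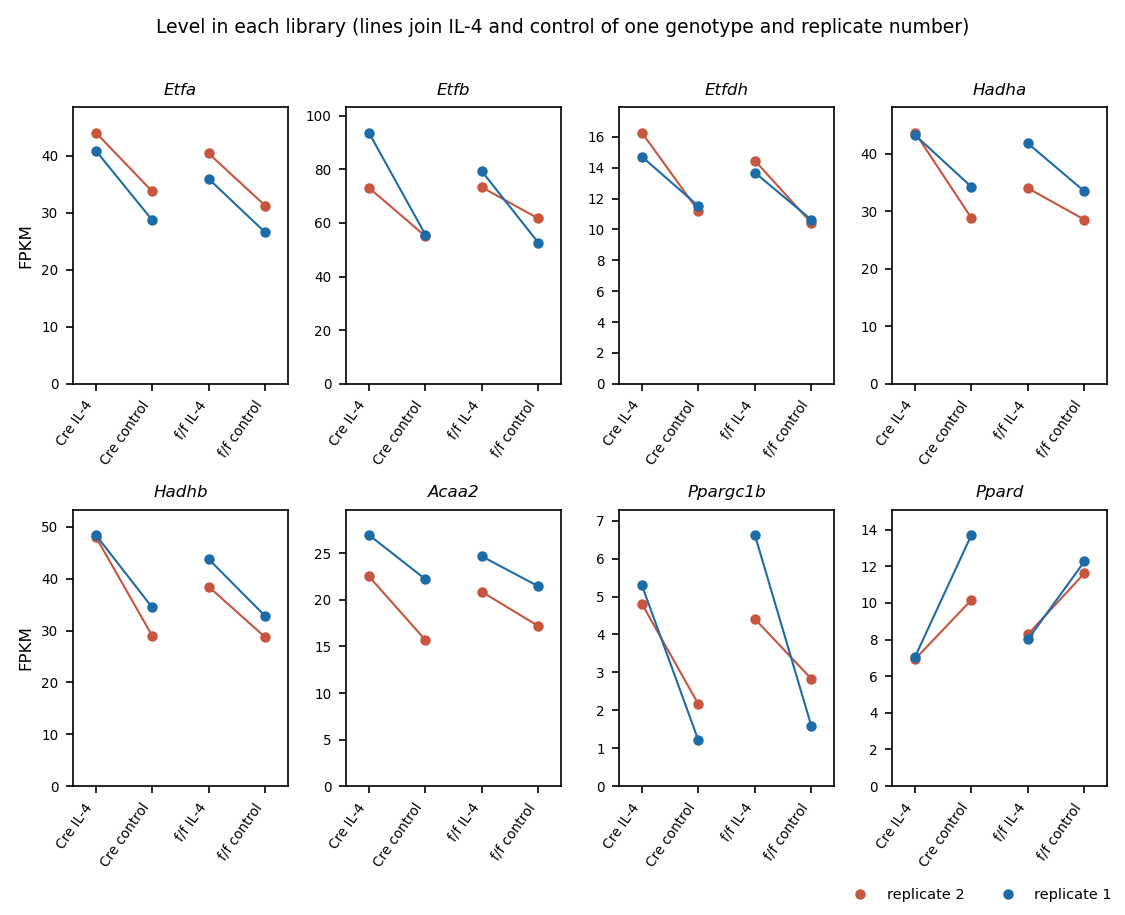
Level in FPKM in each library for the electron transfer genes, Hadha, Hadhb, Acaa2, Ppargc1b and Ppard, with IL-4 left of control and lines joining the libraries of a genotype and replicate number. Each line falls toward control except those of Ppard; Ppargc1b runs between 1.21 and 6.63 FPKM.

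Regulators moved in opposite directions. Ppargc1b, a coactivator of nuclear receptors that drives mitochondrial genes, was at 5.30 and 4.81 FPKM in Ern1f/fLyz2-Cre cells with IL-4, against 1.21 and 2.16 in controls, and at 6.63 and 4.41 FPKM in Ern1f/f cells with IL-4, against 1.59 and 2.83 in controls. All 4 IL-4 libraries lay above all 4 controls, and the average difference was 1.11 (SE 0.19, adjusted p = 0.0147, limma with the block; 0.0854 without), a 2.16-fold higher level. It was larger in replicate 1 (1.54) than in replicate 2 (0.69). Since these levels are low, the pseudocount weighs on this value, which ran from 0.57 to 1.45 over the alternatives with the block. Ppard, a fatty acid sensing nuclear receptor, was at 7.05 and 6.93 FPKM in Ern1f/fLyz2-Cre cells with IL-4, against 13.7 and 10.2 in controls, and at 8.01 and 8.29 FPKM in Ern1f/f cells with IL-4, against 12.3 and 11.6 in controls. The groups did not overlap, and Ppard fell by 0.59 (SE 0.09, adjusted p = 0.0123, limma with the block; 0.0886 without).

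Fibroblast marker sums moved with IL-4 too: they were 213 FPKM with IL-4 against 468 in control in Ern1f/fLyz2-Cre replicate 1, and 81.8 against 170 in Ern1f/f replicate 1, but only 2.14 against 3.47 and 6.56 against 7.32 in the replicates numbered 2. Summed neutrophil markers were lower with IL-4 in all 4 pairs: they were 16.9 FPKM with IL-4 against 26.4 in control in Ern1f/fLyz2-Cre replicate 1, 20.2 against 30.3 in Ern1f/fLyz2-Cre replicate 2, 6.04 against 21.3 in Ern1f/f replicate 1 and 19.8 against 40.1 in Ern1f/f replicate 2. S100a8 made up most of each sum and was lower with IL-4 in each pair. The other neutrophil markers, at lower levels, did not move together. Camp and Ngp were lower with IL-4 in each pair, and S100a9 and Ltf had mixed directions. Elane and Mpo were lower in no pair, and Mpo was at 2.14 FPKM against 0.323 in control in Ern1f/f replicate 2. The parts of the fibroblast and of the neutrophil marker RNA in the IL-4 differences were not tested. Within replicate 2 alone, the average IL-4 differences were 0.37 for Etfa, 0.32 for Etfb, 0.47 for Etfdh, 0.41 for Hadha, 0.56 for Hadhb, 0.69 for Ppargc1b and -0.47 for Ppard, each in the same direction in both genotypes. In bulk cells, fewer cells of a type and less RNA per cell cannot be told apart.

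The carnitine shuttle and the acyl-CoA dehydrogenases had 0 of 8 genes called with IL-4, against 12.7% of all genes with the block and 0.841% without; with so few genes, that is near the share of all genes. Cpt1a was at 25.0 and 27.5 FPKM in Ern1f/fLyz2-Cre cells with IL-4, against 35.5 and 23.5 in controls, and at 28.0 and 25.7 FPKM in Ern1f/f cells with IL-4, against 34.4 and 25.9 in controls. It was thus lower with IL-4 in replicate 1 and nearly level or higher in replicate 2, and its blocked 95% interval ran from -0.44 to 0.16. Crat, the carnitine acetyltransferase, was higher in all 4 pairs, by 0.30 on average (adjusted p = 0.0730, limma with the block). The inner-membrane enzyme Cpt2 and the carrier Slc25a20 had average differences of 0.01 and -0.01; Slc25a20 varied least of all members, between 14.2 and 16.0 FPKM. Acadm, the medium-chain dehydrogenase, was higher in all 4 pairs, by 0.25 (adjusted p = 0.140, limma with the block). The long-chain enzyme Acadl was at 39.3 and 41.8 FPKM in Ern1f/fLyz2-Cre cells with IL-4, against 36.8 and 44.1 in controls, and at 33.3 and 41.4 FPKM in Ern1f/f cells with IL-4, against 35.5 and 36.5 in controls. Its average difference was 0.03, and those of the very-long-chain Acadvl and short-chain Acads were -0.02 and -0.01.

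Peroxisomal genes, which shorten very long and branched fatty acids, and the acyl-CoA synthetases, which activate fatty acids, had 0 of 10 called with IL-4, against 12.7% of all genes with the block and 0.841% without. Hsd17b4 was at 68.9 and 54.8 FPKM in Ern1f/fLyz2-Cre cells with IL-4, against 70.0 and 47.2 in controls, and at 77.9 and 52.2 FPKM in Ern1f/f cells with IL-4, against 68.1 and 45.6 in controls (difference 0.14). Acaa1a was at 43.3 and 47.1 FPKM in Ern1f/fLyz2-Cre cells with IL-4, against 48.8 and 54.8 in controls, and at 50.1 and 44.7 FPKM in Ern1f/f cells with IL-4, against 45.9 and 61.1 in controls (difference -0.18). It shares sequence with its near copy Acaa1b, which was at 0.533 to 1.19 FPKM, so reads of the copies may be split uncertainly. Crot, the peroxisomal carnitine octanoyltransferase, was at 9.75 and 8.51 FPKM in Ern1f/fLyz2-Cre cells with IL-4, against 10.6 and 8.62 in controls, and at 8.23 and 7.14 FPKM in Ern1f/f cells with IL-4, against 9.42 and 8.65 in controls. Crot (-0.14), the reductase Decr2 (-0.14) and the synthetase Acsl1 (-0.25) were lower in all 4 pairs, with adjusted p of 0.240, 0.367 and 0.194 (limma with the block). The oxidase Acox3 and the low Ehhadh, at 0.458 to 1.34 FPKM, had differences of 0.12 and -0.11, and the synthetases Acsl3, Acsl4 and Acsl5 had differences of -0.08, -0.10 and 0.08.

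Genes of binding, droplet coat and lipolysis had 0 of 6 called with IL-4, against 12.7% of all genes with the block and 0.841% without, and for Fabp4, Plin2 and Lipa the direction differed between the replicate numbers. Fabp4 was at 297 and 340 FPKM in Ern1f/fLyz2-Cre cells with IL-4, against 379 and 258 in controls, and at 208 and 258 FPKM in Ern1f/f cells with IL-4, against 388 and 236 in controls. It was thus lower with IL-4 in replicate 1 and higher in replicate 2 in both genotypes, and the same held for Plin2, Lipa and Hadh, 4 of 37 genes against 7.23% of all genes. Plin2 was at 341 and 384 FPKM in Ern1f/fLyz2-Cre cells with IL-4, against 376 and 291 in controls, and at 347 and 328 FPKM in Ern1f/f cells with IL-4, against 407 and 309 in controls. Lipa was at 550 and 526 FPKM in Ern1f/fLyz2-Cre cells with IL-4, against 631 and 398 in controls, and at 569 and 462 FPKM in Ern1f/f cells with IL-4, against 666 and 397 in controls. In both, the control libraries numbered 1 were the higher controls and those numbered 2 the lower, while the IL-4 libraries lay between them, save Plin2 in Ern1f/fLyz2-Cre replicate 2, at 384. Acsl5 did the reverse, higher with IL-4 in replicate 1 and lower in replicate 2, as did 5.83% of all genes.

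Fabp5 was at 2026 and 1331 FPKM in Ern1f/fLyz2-Cre cells with IL-4, against 2386 and 973 in controls, and at 1113 and 1161 FPKM in Ern1f/f cells with IL-4, against 2212 and 1292 in controls. Its blocked 95% interval for the average IL-4 difference ran from -0.72 to 0.25. The cytosolic triglyceride lipase Pnpla2 was at 48.1 and 46.5 FPKM in Ern1f/fLyz2-Cre cells with IL-4, against 61.6 and 46.3 in controls, and at 53.0 and 40.5 FPKM in Ern1f/f cells with IL-4, against 59.7 and 43.6 in controls (difference -0.15, interval -0.38 to 0.07). Lipe, the hormone-sensitive lipase, was at 9.04 and 8.83 FPKM in Ern1f/fLyz2-Cre cells with IL-4, against 9.90 and 8.22 in controls, and at 11.8 and 8.07 FPKM in Ern1f/f cells with IL-4, against 10.3 and 9.11 in controls, with no even direction.

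**Figure D4:**
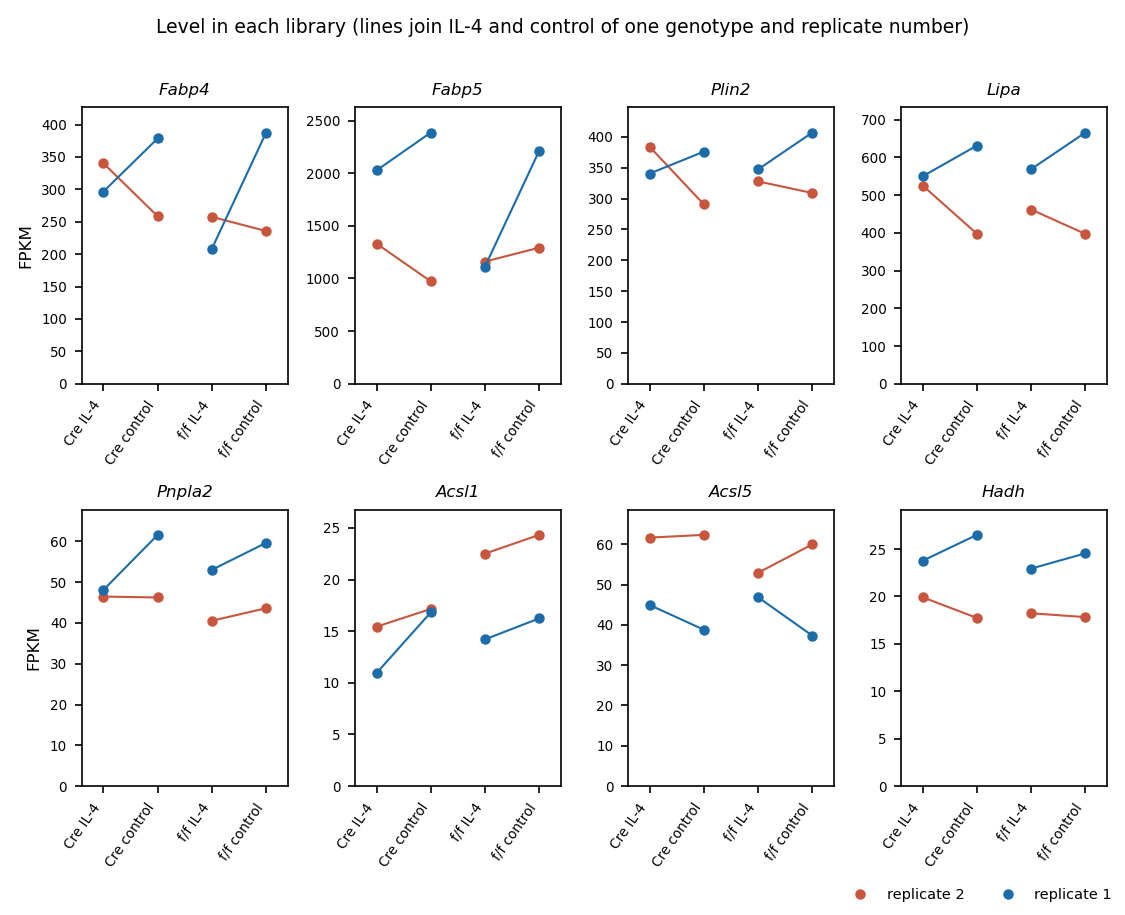
Level in FPKM in each library for 5 genes of binding, storage and lipolysis and for Acsl1, Acsl5 and Hadh, with IL-4 left of control and lines joining the libraries of a genotype and replicate number. For Fabp4, Plin2 and Lipa the lines of replicates 1 and 2 slope in opposite directions; Acsl5 is higher in replicate 2 than in replicate 1 in all 4 groups.

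The replicate numbers themselves differed in 10 of the 37 genes (replicate 2 minus replicate 1, limma, adjusted p under 0.05), against 33.4% of all genes. That count was 2 without the filter on low values. It was also lower when any 1 of the 8 libraries was left out, lowest without either Ern1f/f control. Such fits have fewer libraries to estimate the spread, and reliance of the 10 genes on particular libraries was not tested. Lower in replicate 2 were 8 of them (23.3% of all genes): Eci1 by the most, with 7.42, 6.77, 6.11 and 6.63 FPKM in the replicates 2 of Ern1f/fLyz2-Cre with IL-4, Ern1f/fLyz2-Cre control, Ern1f/f with IL-4 and Ern1f/f control, against 13.9, 11.4, 13.0 and 12.1 FPKM in the replicates 1 of those groups, and then Fabp5, Hsd17b4, Lipa, Hadh, Echs1, Pnpla2 and Acaa2. The difference was -0.82 for Eci1, -0.65 for Fabp5, -0.50 for Hsd17b4 and -0.44 for Lipa; Fabp5 was lower in replicate 2 in 3 of the 4 groups. Higher in replicate 2 were Acsl1 (0.42) and Acsl5 (0.49), 2 of 37 against 10.1% of all genes. Acsl5 was at 61.7, 62.3, 52.9 and 60.0 FPKM in the replicates 2 and at 44.9, 38.8, 46.9 and 37.3 FPKM in the replicates 1 of the same groups. The part of the fibroblast marker RNA, which parted the same numbers, in these differences was not tested.

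Of 62 further genes of fatty acid uptake, oxidation, control and droplets found in the tables, 45 were tested, and their median IL-4 difference was -0.00, against -0.03 over all genes. With the block 5 of the 45 were higher and 2 were lower in the average, against 5.88% and 6.86% of all genes. Without it 0 were called, against 0.841% of all genes. How the blocked calls of these further genes hold with a library left out or without the filter was not examined here. Cd36, the fatty acid translocase, was at 250 and 391 FPKM in Ern1f/fLyz2-Cre cells with IL-4, against 149 and 182 in controls, and at 316 and 246 FPKM in Ern1f/f cells with IL-4, against 202 and 125 in controls (difference 0.86, adjusted p = 0.0489, limma with the block). The lipase gene Lipn, at 12.5 and 31.2 FPKM with IL-4 against 0.339 and 3.14 in control in Ern1f/fLyz2-Cre cells and at 10.6 and 19.7 FPKM with IL-4 against 0.696 and 2.16 in control in Ern1f/f cells, had the largest difference, 2.94. Pparg, the receptor that IL-4 is known to engage in macrophages, differed by 1.17, with 63.9 and 39.1 FPKM with IL-4 against 29.7 and 12.8 in control in Ern1f/fLyz2-Cre cells and 58.7 and 26.9 FPKM with IL-4 against 30.4 and 11.6 in control in Ern1f/f cells. Abcd2, a peroxisomal fatty acyl transporter, differed by 1.05 and Acss1, the mitochondrial acetyl-CoA synthetase, by 0.59. Lower were Acss2, the cytosolic acetyl-CoA synthetase (-0.50), and Mgll, the monoglyceride lipase (-0.49). The largest differences below 0 that were not called were those of Pdk4 (-0.72) and Fabp3 (-0.64), and Pdk4 was at or under 0.0663 FPKM in all libraries numbered 2. Ppargc1a, the better known relative of Ppargc1b, was at or under 0.0212 FPKM.

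Genotype made no called difference in these genes. In cells with IL-4, in controls and in the average over treatments, 0 of 37 were called without the block, against 0%, 0% and 0% of all genes, and 0 with it, against 0.00915%, 0% and 0% of all genes. At an unadjusted p under 0.05 there were 0 of 37 without the block in each, against 0.384% of all genes with IL-4, 0.247% in controls and 0.476% in the average. With the block there were 1 with IL-4 (1.73% of all genes), 0 in controls (1.25%) and 1 in the average (2.04%). The gene was Acsl1 both times, which provides acyl-CoA at the reticulum and mitochondria: it was at 10.9 and 15.4 FPKM in Ern1f/fLyz2-Cre and 14.2 and 22.5 FPKM in Ern1f/f cells with IL-4, and at 16.8 and 17.2 FPKM in Ern1f/fLyz2-Cre and 16.2 and 24.3 FPKM in Ern1f/f controls. It was lower in 3 of 4 pairs, with an average of -0.32 (blocked 95% interval -0.60 to -0.05, unadjusted p = 0.0261, limma). Across the 37 genes the averages over treatments ran from -0.32 to 0.29.

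Acsl3, a synthetase of the reticulum and of nascent droplets, was at the other end and was higher in 4 of 4 pairs: it was at 3.80 and 4.34 FPKM in Ern1f/fLyz2-Cre and 3.62 and 2.79 FPKM in Ern1f/f cells with IL-4, and at 5.59 and 3.44 FPKM in Ern1f/fLyz2-Cre and 3.69 and 3.09 FPKM in Ern1f/f controls. Its average was 0.29, with a blocked interval from -0.01 to 0.59. With IL-4, Fabp5 differed by 0.53 (blocked interval -0.16 to 1.22), Fabp4 by 0.45 (-0.19 to 1.095) and Hadhb by 0.23 (-0.03 to 0.49); in controls, Ppargc1b differed by -0.25 (-0.89 to 0.39) and Acadl by 0.16 (-0.12 to 0.43, blocked). Of the 37, 7 were higher in Ern1f/fLyz2-Cre in 4 of 4 pairs (6.55% of all genes) and 0 were lower in 4 of 4 (4.49% of all genes). The 7 were Acadl, Etfa, Etfdh, Hadha, Hadhb, Echs1 and Acsl3, with averages between 0.09 (Echs1) and 0.29 (Acsl3), and none of them was called. These intervals do not show that the genotypes act alike.

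**Figure D5:**
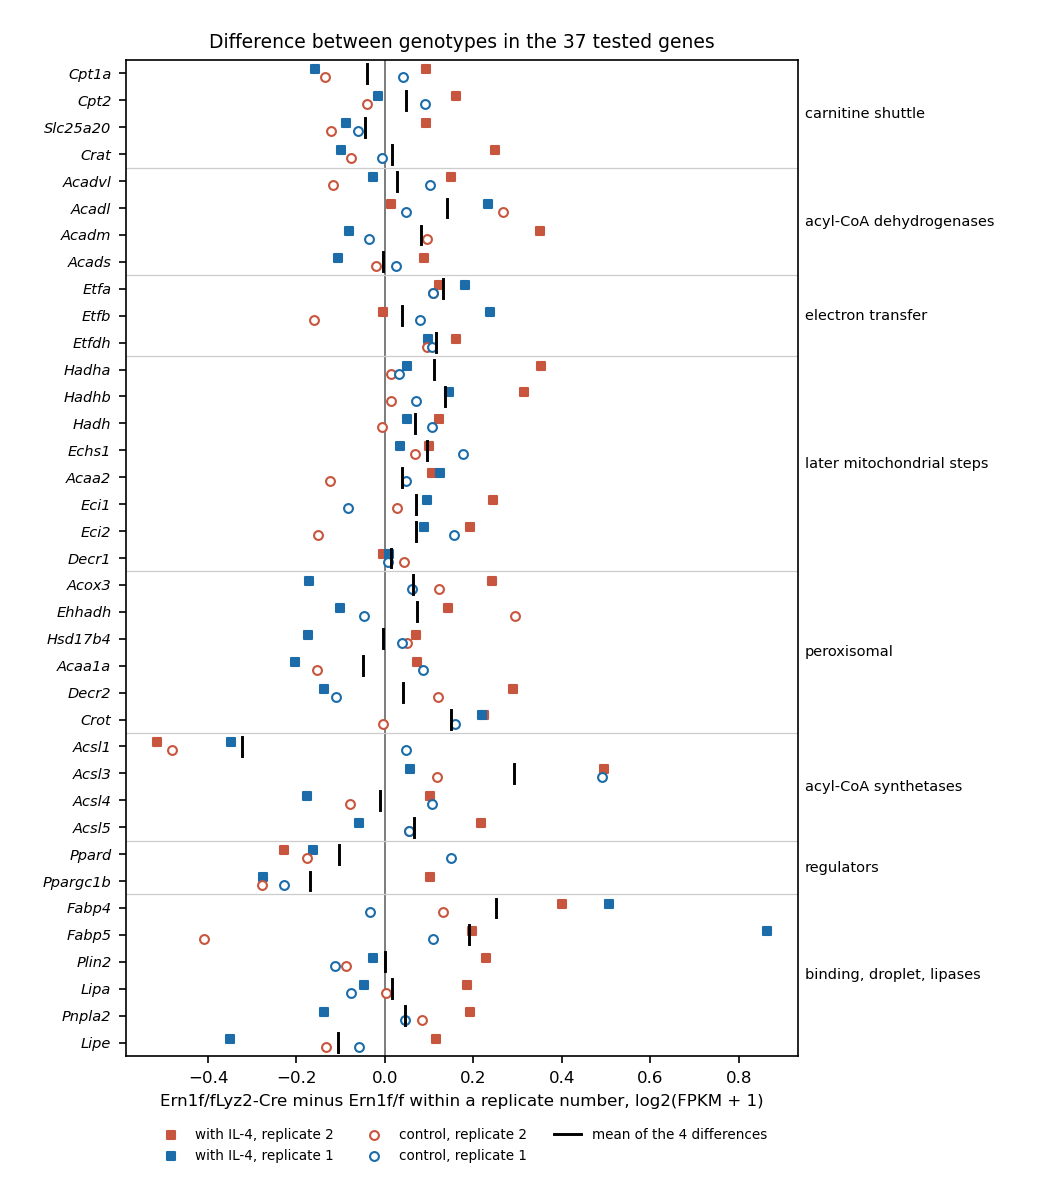
Ern1f/fLyz2-Cre minus Ern1f/f in log2(FPKM + 1) within each replicate number for the 37 tested genes, with filled squares for IL-4, open circles for control, colour for the replicate number and a bar for the mean of the 4 differences. The bars lie between -0.32 (Acsl1) and 0.29 (Acsl3), and in most genes the 4 points lie on both sides of 0.

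Whether IL-4 acted differently in the genotypes was tested as an interaction, the IL-4 difference in Ern1f/fLyz2-Cre minus that in Ern1f/f. It was called for 0 of 37 genes in either fit, as for 0% of all genes, and 0 of the 37 had an unadjusted p under 0.05, against 0.174% of all genes without the block and 0.942% with it. The largest were those of Fabp5, at 0.68 (95% interval of -0.98 to 2.34, or of -0.29 to 1.65 in the blocked fit), and Fabp4, at 0.40 (-0.50 to 1.31 with the block); Plin2 and Eci1 were at 0.20 each. Below 0 lay Acsl1 (-0.22), Ppard (-0.18) and Ehhadh (-0.10). For the genes that moved with IL-4, the interaction was 0.04 for Etfa, 0.16 for Etfb and 0.03 for Etfdh. It was 0.18 for Hadha, 0.19 for Hadhb and 0.17 for Ppargc1b. Each blocked interval includes 0, which does not show that the genotypes responded alike.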

How the data were processed

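RNA-seq was made from 8 libraries of bone-marrow-derived macrophages. The authors deposited FPKM values per gene, with 95% intervals, made with TopHat 1.4.1 and Cufflinks 1.3.0 on mm10, per the submitters' processing notes; read totals and use of strand are not given in the sources used here, so no count test was run. Rows were matched by symbol. Values were taken as log2(FPKM + 1), a gene was kept where 2 or more libraries reached 1 FPKM, and 4 group means were fitted over all 10934 genes with limma 3.58.1 (R 4.3.3, empirical Bayes with a trend, two-sided, Benjamini-Hochberg adjusted p under 0.05). The 6 planned comparisons were IL-4 minus control in each genotype, Ern1f/fLyz2-Cre minus Ern1f/f in each treatment and on average, and the interaction. The planned fit has no block. Replicate differences correlated between all 6 pairs of groups, so the numbers were taken as pairing libraries, from the data and not from the labels, and the fit with the replicate number as a block is given where it changes a call. The members and gene lists were chosen with earlier results of these data known. Genes named were those called, the highest of each role, and up to 4 in each direction with the largest difference of the same sign in both replicate numbers; others were named to account for every member. The model code was tested on simulated data, with 200 genes changed by IL-4 in Ern1f/f. For a log2 change of 1, the fit without the block called 0 of the 200. With the block it called all 200 and 14 unchanged genes. For a change of 2, the fit without the block called 161. The simulated replicate difference was the same in every group, which favours the block. A count of 0 without the block thus says little about differences near 1. Python 3.11.15, pandas 2.3.3, numpy 2.4.6 and matplotlib 3.10.9 were used. Promoter sequence came from RefSeq on GRCm38.p6. The deposited intervals of single values cover counting error only, while the intervals of differences rest on the spread between libraries.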

Additional observations from a re-analysis of the deposited data

How the results depend on the processing

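Against the fit without it, the replicate block moved many calls: those among all genes went to 232 in Ern1f/f (0 without), 363 in Ern1f/fLyz2-Cre (6 without) and 1393 in the average (92 without) for IL-4, and to 1 for genotype with IL-4 (0 without); members called went to 2 in Ern1f/fLyz2-Cre and 7 in the average (0 without). It changed no call among the members for genotype or the interaction. With the block, members called in Ern1f/fLyz2-Cre were 1 with pseudocount 5, 0 with no filter and 1 without the trend, and in the average 1 with no filter.

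Calls among all genes for IL-4 in Ern1f/f were 31 with no filter and 11 under either rescaling, whose median over members under upper quartile scaling was 0.037. In Ern1f/fLyz2-Cre they were 0 with pseudocount 0.1, without the trend or with the compared groups alone, 1 with no filter, 22 at a minimum of 5 FPKM, 13 under upper quartile and 26 under median log ratio scaling. With no filter, genotype gave 10 in controls, 17 with IL-4 and 24 on average, the interaction 22, and the replicate difference 2 members.

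Grouping by the genotype field, which equals the replicate number, gave 2264, 1273 and 2919 genes (7, 5 and 9 members) for IL-4 in Ern1f/f, in Ern1f/fLyz2-Cre and on average. For genotype it gave 3816 genes, 14 members and a median of -0.19 in controls, 3273, 6 and -0.10 with IL-4, and 5240, 13 and -0.15 on average, and for the interaction 106 genes. It reversed Ehhadh for IL-4 in Ern1f/fLyz2-Cre (0.048). It reversed genotype differences in controls for Acsl3 (-0.38), Echs1 (-0.45) and Ppargc1b (0.54), and with IL-4 for Acsl1 (0.54), Acsl3 (-0.065), Fabp5 (-0.27), Hadhb (-0.10) and Ppard (0.011). On average it reversed Acsl1 (0.42), Acsl3 (-0.23), Crot (-0.19), Fabp4 (-0.19) and Ppargc1b (0.12), and in the interaction Acsl1 (0.25), Eci1 (-0.17), Ehhadh (0.32) and Ppard (0.25).

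Leaving out each library in turn gave 3 to 49 genes for the IL-4 average, 0 to 1 in each genotype, 2 to 6 members for the replicate difference and, with the block, 1 to 4 members on average and 0 to 1 in Ern1f/fLyz2-Cre. Medians ran from -0.093 to 0.087 for IL-4 in Ern1f/f, -0.080 to 0.11 for genotype in controls and -0.016 to 0.098 on average. Signs turned for Ehhadh with IL-4 in Ern1f/fLyz2-Cre (-0.49 to 0.17). For genotype in controls they turned for Echs1 (-0.13 to 0.38), Etfa (-0.0050 to 0.22), Lipe (-0.22 to 0.026), Plin2 (-0.30 to 0.10) and Ppargc1b (-0.54 to 0.031), and on average for Lipe (-0.23 to 0.018). In the interaction they turned for Acsl1 (-0.53 to 0.10), Eci1 (-0.29 to 0.69), Ehhadh (-0.43 to 0.23) and Ppard (-0.38 to 0.017). The cause of these moves was not tested.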
